A study of Mus musculus with 64 samples.

Results

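Ifitm2 and Ifitm3 encode interferon-induced transmembrane proteins, and they were taken by gene symbol as 2 of the 5647 genes measured in bulk RNA-seq of microglia, the resident macrophages of the brain. Live CD11b+ CD45low cells were sorted from single brains of wild-type mice, which the study's methods give as C57BL/6J, and each of the 64 libraries came from 1 mouse. LPS-treated females of 3, 14 and 24 months (3, 5 and 3 mice) had received lipopolysaccharide (LPS), a bacterial cell wall component, by intraperitoneal injection. Animals labelled as given phosphate-buffered saline (PBS) were males of 3, 6 and 9 months (4 mice each), 12 months (2), 16 months (4), 19 months (5) and 24 months (4), and females of 3 months (4), 6 months (2), 9 months (3), 12 months (4), 14 and 16 months (5 each) and 24 months (3). The PBS females of 3, 14 and 24 months served both the ageing series and the LPS comparison, so that these comparisons share mice.

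IFITM proteins are small membrane proteins that hinder the fusion of enveloped viruses with cellular membranes, Ifitm3 mainly in endosomes and lysosomes. Type I and type II interferons induce them through JAK kinases and STAT and IRF transcription factors, and LPS, sensed by Toll-like receptor 4, leads to release of interferon beta. In the brain, Ifitm3 is a common marker of interferon-responsive microglia, and its protein binds gamma-secretase, the enzyme that cuts the amyloid precursor protein.

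Both genes lie in the Ifitm cluster on the minus strand of mouse chromosome 7 (mm10, GRCm38). GENCODE places Ifitm2 (ENSMUSG00000060591.9) at chr7:140954837-140955987 and Ifitm3 (ENSMUSG00000025492.6) at chr7:141009586-141010770, with 53598 bases between them, in which Ifitm1 lies on the other strand. The sequences just upstream of the genes are shown because both genes moved together and the interferon motif sits at a different place in each. The letters GAAANNGAA, the core of the interferon-stimulated response element, were searched on both strands from 250 bases before to 50 bases after the RefSeq start (GRCm38.p6), and matches are in capitals. The first 2 lines end 27 bases before the RefSeq start, just outside the GENCODE gene, and the third begins at the first base of the RefSeq transcript.
Ifitm2, chr7:140955988-140956087, minus strand: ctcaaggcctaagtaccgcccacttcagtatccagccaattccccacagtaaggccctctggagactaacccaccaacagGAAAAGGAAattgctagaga
Ifitm3, chr7:141010771-141010870, minus strand: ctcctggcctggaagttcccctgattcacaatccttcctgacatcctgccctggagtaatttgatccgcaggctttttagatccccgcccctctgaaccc
Ifitm3, chr7:141010717-141010744, minus strand: agGAAAAGGAAacttctgaGAAACCGAA

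Ifitm2 held 1 match, 46 to 38 bases before its start, and Ifitm3 held 2, at bases 3 to 11 and 20 to 28 of its transcript. Of 32851 RefSeq promoter windows of this length, 8.56% held at least 1 match and 0.624% held 2 or more. Ifitm3 also held TTCNNNGAA, a STAT motif, at bases 14 to 22, where it overlaps the second GAAANNGAA match, and 8.30% of the windows held that motif. The NF-kB consensus, searched by its usual letters on both strands, had no match in either window and was in 9.38% of all windows. These matches describe letters only.

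The values of the genes are the authors' FPKM (sequenced fragments, normalised for transcript length and for library size), adjusted for batches and rounded to whole numbers, and they are called adjusted FPKM here. They summed to between 408457 and 554459 per library, and the sequencing depth is unknown. In 21 libraries no value lay between 0 and 1, whereas the other 43 held such values, a mark of processing whose origin is not stated. The 21 comprised all males aged 12, 16 or 24 months, 4 of 5 aged 19 months and 2 of 4 aged 3 months, together with all females aged 16 months. This mark cannot be told apart from sex at 12 and 24 months, or from age between females of 16 months and the other female ages. Nor can it be told apart from age between males of 6 or 9 months, whose libraries all held such values, and males of 12, 16 or 24 months. The 10 listed microglia markers, among them P2ry12, Tmem119 and Cx3cr1, were present in every library, with summed levels between 14584 and 26494 adjusted FPKM. In bulk samples, fewer cells of a type and less RNA per cell cannot be told apart.

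Ifitm2 and Ifitm3 share some sequence with other genes. Of the 629 stretches of 50 bases in the annotated Ifitm3 transcript, 63 also occur in transcripts of another gene and 20 (3.18%) in Ifitm2. Of the 606 such stretches in the Ifitm2 transcript, 48.5% occur elsewhere, mostly in Gm45717 (219 stretches), an annotated gene on the same strand whose span overlaps Ifitm2. The Ifitm2 level is therefore uncertain to the extent that the counting divided reads between these genes.

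Both genes were among the more abundant messages, on a scale that is per length. Ifitm3 averaged 295 adjusted FPKM over the 64 libraries (range 119 to 685) and ranked 199th of 5647 genes. Ifitm2 averaged 254 adjusted FPKM (range 85 to 770) and ranked 229th.

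Group means of Ifitm2 spanned 5.81-fold. They were highest in males of 16 months, at 588.2 ± 181 adjusted FPKM (SD, n = 4), then in LPS-treated females of 24 months (384.3 ± 82.3, n = 3), males of 19 months (383.6 ± 66.3, n = 5), LPS-treated females of 3 months (331.0 ± 45.2, n = 3), males of 12 months (312.5 ± 91.2, n = 2) and LPS-treated females of 14 months (312.2 ± 84.8, n = 5). The lowest means were in PBS females of 3 months (101.2 ± 7.09, n = 4) and males of 9 months (101.2 ± 0.957, n = 4). Of the 16 steps between neighbours in this order, 2 were larger than the SDs of both neighbours, from males of 16 months to the next group and from females of 9 months to males of 9 months, and only the second was without overlap of mice.

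Ifitm3 spanned 3.60-fold, with the same groups at both ends and another order in between. Its mean was highest in males of 16 months (503.5 ± 135 adjusted FPKM, n = 4), then in LPS-treated females of 14 months (402.8 ± 129, n = 5), males of 19 months (390.4 ± 67.0, n = 5), females of 16 months (383.4 ± 183, n = 5) and males of 24 months (377.0 ± 106, n = 4). It was lowest in PBS females of 3 months (140.0 ± 23.2, n = 4) and males of 9 months (140.8 ± 23.1, n = 4). None of its 16 neighbouring steps exceeded the SDs of both groups.

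**Figure D1:**
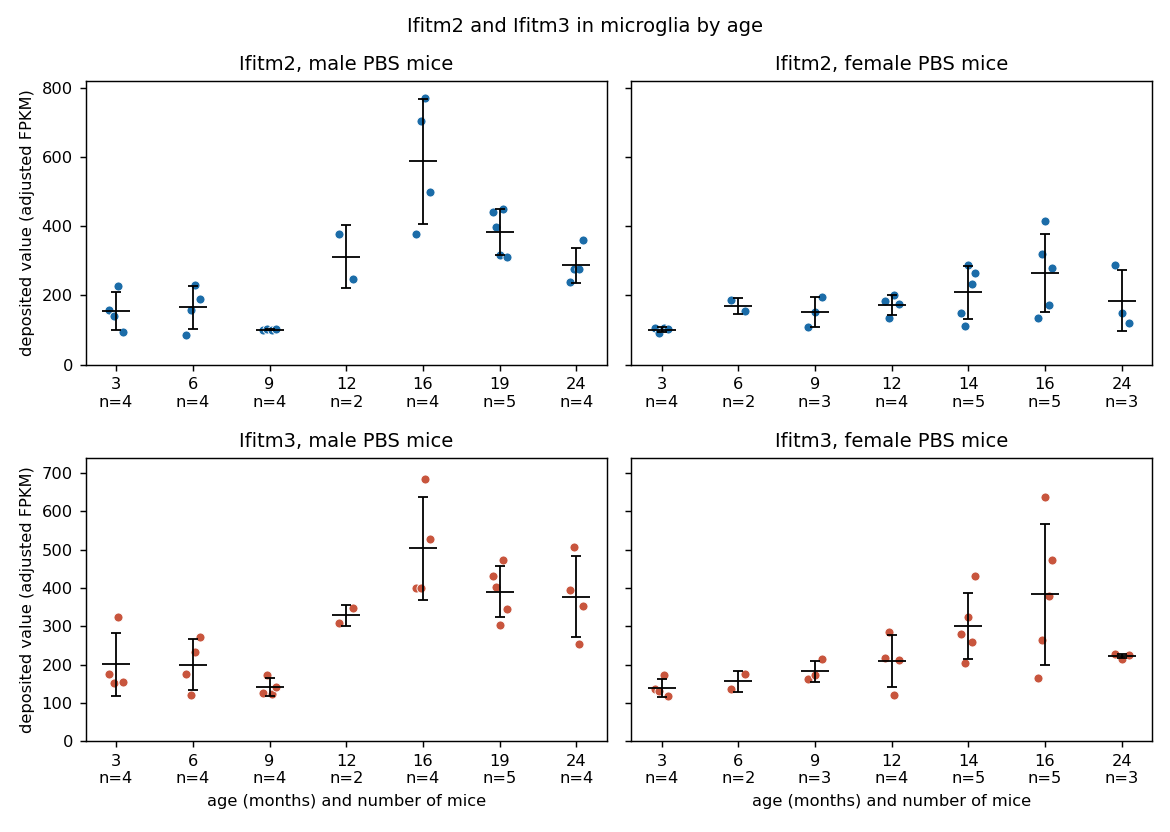
Adjusted FPKM of Ifitm2 (top) and Ifitm3 (bottom) in PBS males (left) and PBS females (right) by age in months. Points are mice, and the black line and bars are the mean and SD. In males both genes stood highest at 16 months (Ifitm2 379 to 770, Ifitm3 400 to 685), and in females the widest spread was at 16 months (Ifitm2 136 to 416, Ifitm3 166 to 638).

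The first question was how the genes changed with age in males. In males both genes were low from 3 to 9 months and high from 12 months on, with a peak at 16 months. Ifitm2 was 157, 140, 228 and 94 adjusted FPKM at 3 months, 85, 157, 231 and 190 at 6 months, and 101, 102, 100 and 102 at 9 months. It was 377 and 248 at 12 months, 379, 704, 770 and 500 at 16 months, 441, 397, 317, 451 and 312 at 19 months, and 240, 276, 276 and 359 at 24 months. Every male of 12 months or older was above every male of 3 to 9 months for Ifitm2.

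Ifitm3 followed the same course in males with some overlap. It was 175, 152, 323 and 154 adjusted FPKM at 3 months, 175, 120, 234 and 272 at 6 months, and 125, 173, 123 and 142 at 9 months. It was 309 and 348 at 12 months, 401, 400, 685 and 528 at 16 months, 430, 402, 304, 472 and 344 at 19 months, and 394, 508, 253 and 353 at 24 months. A mouse of 3 months (323 adjusted FPKM) and a mouse of 6 months (272) overlapped the older groups.

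A gene passed in limma at a Benjamini-Hochberg adjusted p under 0.05 over all genes with a fold over 1.5. Across the 7 male ages both genes passed the F-test, Ifitm2 with an adjusted p of 2.19e-07 and Ifitm3 with 1.33e-05, where 8.36% of all genes passed. At 16 against 3 months Ifitm2 rose 1.93 ± 0.26 on the log2 scale (SE, adjusted p = 8.3e-06) and Ifitm3 rose 1.36 ± 0.25 (adjusted p = 0.000479), while 4.52% of genes passed upwards and 1.77% downwards. At 19 against 3 months Ifitm2 rose 1.36 ± 0.25 (adjusted p = 0.00093) and Ifitm3 rose 1.01 ± 0.24 (adjusted p = 0.0112), with 3.05% of genes passing. The Ifitm3 rise at 19 months no longer passed without replicate 2 (0.90, adjusted p = 0.0591) or replicate 4 (0.91, adjusted p = 0.0678) of the 3-month males.

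At 24 against 3 months both male values were smaller and close to the threshold. Ifitm2 averaged 287.8 ± 50.4 adjusted FPKM at 24 months and 154.8 ± 55.6 at 3 months (SD, n = 4 each), a log2 change of 0.94 ± 0.26 (adjusted p = 0.0434). Ifitm3 averaged 377.0 ± 106 and 201.0 ± 82.0 adjusted FPKM at those ages, a log2 change of 0.94 ± 0.25 (adjusted p = 0.0374). Of all genes 2.73% passed upwards and 0.124% downwards in this comparison. For each gene the call was lost without any 1 of 6 of the 8 libraries, for Ifitm2 all but replicate 3 of 3 months and replicate 1 of 24 months, and for Ifitm3 all but replicate 3 of either age. The log2 change ran from 0.73 to 1.15 for Ifitm2 and from 0.78 to 1.19 for Ifitm3, with adjusted p up to 0.254 and 0.163.

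The younger male ages gave no call. The log2 changes of Ifitm2 against 3 months were 0.08 ± 0.26 at 6 months, -0.54 ± 0.26 at 9 months and 1.05 ± 0.32 at 12 months (adjusted p = 0.96, 0.418 and 0.133), and those of Ifitm3 were 0.00 ± 0.25, -0.45 ± 0.25 and 0.78 ± 0.31 (adjusted p = 0.998, 0.48 and 0.3). The share of all genes that passed was 0% at 6 months, 0.0354% at 9 months and 0.903% at 12 months. Among libraries without values between 0 and 1 the log2 changes of Ifitm2 were 1.93 at 16 months and 0.94 at 24 months, and those of Ifitm3 were 1.58 and 1.16. With these libraries alone the Ifitm2 value at 24 months did not pass (adjusted p = 0.116), and the other 3 did. Among libraries with such values, 1 of 19 months and 2 of 3 months, neither gene passed at 19 months (Ifitm2 1.58, adjusted p = 0.308, and Ifitm3 0.94, adjusted p = 0.563).

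Markers of blood leukocytes also rose in males at 16 and 24 months. Of 12 measured neutrophil markers 9 rose at 16 months and 7 at 24 months, and their summed level was 9149 to 31945 adjusted FPKM at 16 months and 5661 to 10515 at 24 months, against 2826 to 4683 at 3 months. S100a9, a calcium-binding protein abundant in neutrophils, averaged 2733 ± 1379 at 16 months and 571 ± 179 at 3 months. Of 7 monocyte markers 7 rose at 16 months and 4 at 24 months, with sums of 517 to 1439 and 442 to 762, against 184 to 279 at 3 months. The 3 measured T and NK cell markers, Nkg7, Ccl5 and Ms4a4b, rose at both ages, with sums of 207 to 584 at 16 months and 196 to 471 at 24 months, against 44 to 75 at 3 months. Ccl5, which the study analysed as an interferon gamma response gene in microglia, averaged 241 ± 140 at 16 months. Nkg7 averaged 87.5 ± 13.7 there and Ms4a4b 34.8 ± 6.7. At 19 months the neutrophil and monocyte sums were 7186 to 13392 and 504 to 874. The T and NK cell sum there was 39 to 261, overlapping that at 3 months. Of 10 microglia markers 4 fell at 16 months and 1 at 24 months. The part of these cells in the Ifitm2 and Ifitm3 levels was not tested.

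In females both genes rose at 16 months, and their means at 24 months lay lower. Ifitm2 was 106, 91, 106 and 102 adjusted FPKM at 3 months, 186 and 154 at 6 months, 110, 151 and 195 at 9 months, and 183, 134, 200 and 174 at 12 months. It was 149, 111, 287, 234 and 265 at 14 months, 136, 319, 416, 173 and 280 at 16 months, and 287, 150 and 119 at 24 months. Every female of 6 months or older was above every female of 3 months for Ifitm2.

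Ifitm3 also had its lowest female mean at 3 months. It was 137, 131, 173 and 119 adjusted FPKM at 3 months, 137 and 175 at 6 months, 162, 172 and 214 at 9 months, and 218, 285, 121 and 212 at 12 months. It was 280, 203, 325, 258 and 432 at 14 months, 166, 263, 638, 378 and 472 at 16 months, and 227, 216 and 224 at 24 months. The 3 mice of 24 months lay close together and above all 4 mice of 3 months.

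Across the 7 female ages Ifitm3 passed the F-test (adjusted p = 0.0129) and Ifitm2 did not (adjusted p = 0.0571), where 14.8% of all genes passed. The study picked Ifitm3 for its female ageing genes on these same samples, so that its female values are no independent evidence of a direction. At 16 against 3 months Ifitm3 rose 1.31 ± 0.27 on the log2 scale (SE, adjusted p = 0.00359) and Ifitm2 rose 1.27 ± 0.29 (adjusted p = 0.00685), while 3.01% of genes passed upwards and 6.00% downwards. No library of 16 months held values between 0 and 1 and all of 3 months did, so that this mark and age cannot be told apart here. At 14 against 3 months Ifitm3 rose 1.06 ± 0.27 (adjusted p = 0.0307), whereas Ifitm2 had a log2 change of 0.95 ± 0.29 that did not pass (adjusted p = 0.0578), with 3.31% of genes passing. The Ifitm2 value passed under 7 of 12 alternatives other than leaving out a mouse, with adjusted p of 0.0254 to 0.0946 over the 12. The Ifitm3 call at 14 months was lost without any 1 of the 4 mice of 3 months or without replicate 5 of 14 months, with adjusted p between 0.0516 and 0.0927.

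At 24 against 3 months neither gene passed in females. Ifitm2 averaged 185.3 ± 89.4 adjusted FPKM at 24 months (n = 3) and 101.2 ± 7.09 at 3 months (n = 4), a log2 change of 0.77 ± 0.33 (adjusted p = 0.207). Ifitm3 averaged 222.3 ± 5.69 and 140.0 ± 23.2 adjusted FPKM at those ages, a log2 change of 0.68 ± 0.31 (adjusted p = 0.236), and its mice did not overlap between the ages. Of all genes 1.56% passed upwards and 0.531% downwards. In a fit of these 2 groups alone Ifitm3 passed (adjusted p = 0.00801).

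At 6, 9 and 12 months neither gene passed in females. The log2 changes of Ifitm2 against 3 months were 0.74 ± 0.38, 0.55 ± 0.33 and 0.75 ± 0.31 (adjusted p = 0.458, 0.34 and 0.11), and those of Ifitm3 were 0.16 ± 0.35, 0.38 ± 0.31 and 0.52 ± 0.29 (adjusted p = 0.885, 0.489 and 0.238). The share of genes that passed was 0.301%, 2.66% and 9.07% at these ages. Of the 12 neutrophil markers none passed in females at 16 months, and their sum was 2686 to 15399 adjusted FPKM, against 6984 to 18506 at 3 months. At 24 months 2 of 12 fell, Mpo and Elane, both enzymes of early neutrophil granules. Of 7 monocyte markers 3 rose at 16 months and none passed at 24 months, with sums of 267 to 1151 and 186 to 715, against 248 to 632 at 3 months. The 3 T and NK cell markers rose at both ages, with sums of 113 to 306 at 16 months and 222 to 318 at 24 months, against 42 to 54 at 3 months. Ccl5 averaged 150 ± 48.1 at 16 months and 77.3 ± 12.7 at 24 months. Nkg7 averaged 60.6 ± 25.0 and 128 ± 27.1, and Ms4a4b 26.2 ± 12.7 and 50.3 ± 15.5. Of 10 microglia markers 6 fell at 16 months and 1 at 24 months. The part of these cells in the values of the genes was not tested.

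Over single PBS mice, both genes were related to age. In the 27 males age and Ifitm2 gave a Pearson r of 0.64 and a Spearman rho of 0.65 (two-sided permutation p = 0.00046 and 0.0004, adjusted over 6 relations 0.00069 and 0.0006), and age and Ifitm3 gave 0.68 and 0.65 (permutation p = 0.0001 and 0.0003, adjusted 0.0002 and 0.0006). In the 26 females age and Ifitm2 gave an r of 0.47 and a rho of 0.51 (permutation p = 0.0166 and 0.00859, adjusted the same), and age and Ifitm3 gave 0.52 and 0.67 (permutation p = 0.00591 and 0.00024, adjusted 0.00709 and 0.0006). Without the 2 mice farthest from the median age r was 0.66 and 0.74 in males and 0.69 and 0.63 in females for Ifitm2 and Ifitm3. In each sex those 2 mice were of 24 months, so that this cut part of the oldest group only. Among the 16 males whose libraries had no values between 0 and 1 r was 0.39 for Ifitm2 and 0.59 for Ifitm3, and among the other 11 males it was 0.45 and 0.33. Among the 21 females with such values r was 0.45 and 0.55, and the 5 without were all of 1 age.

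**Figure D2:**
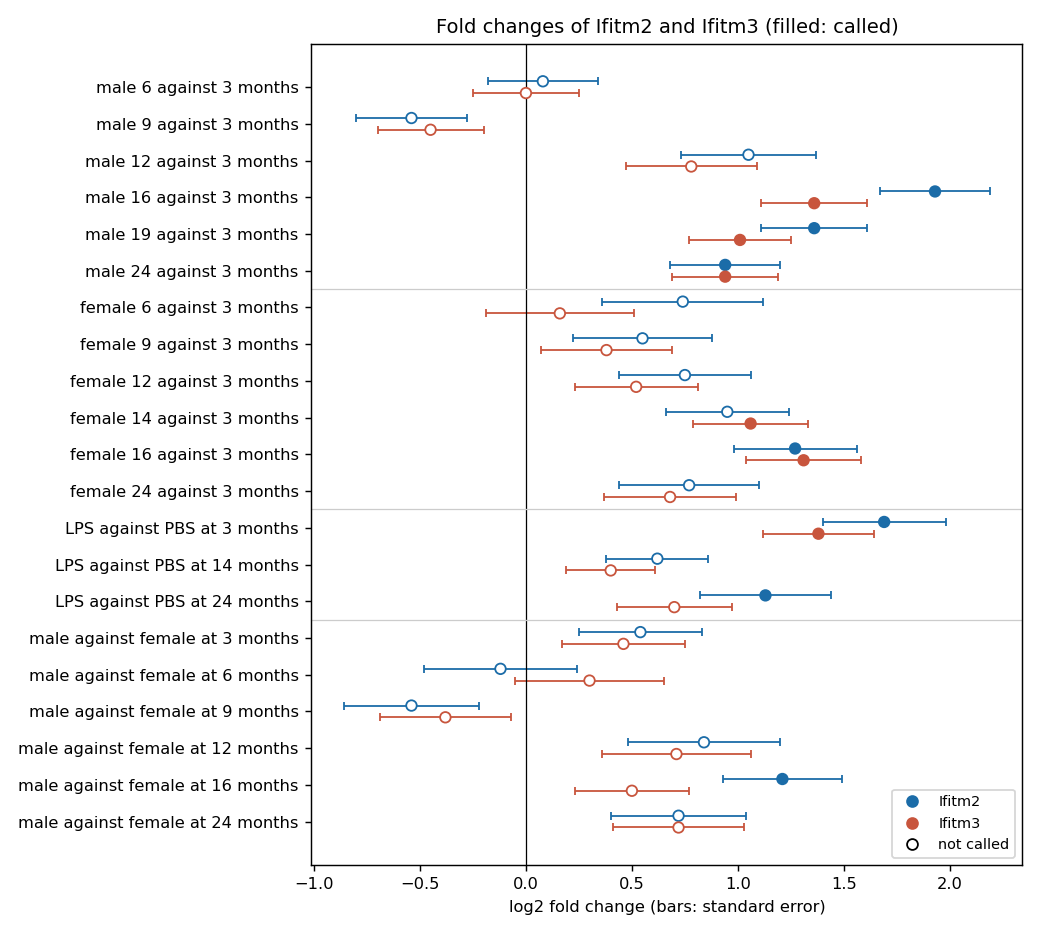
Log2 fold changes of Ifitm2 (blue) and Ifitm3 (red) in 21 comparisons, with the standard error as a bar. Filled points passed the limma test and open points did not. Ifitm2 in males of 16 against 3 months had the largest value, 1.93, and both genes passed in males of 16, 19 and 24 months, in females of 16 months and under LPS at 3 months.

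The next comparison was of males with females at the 6 shared ages. Ifitm2 was higher in males at 16 months, where males had 379, 704, 770 and 500 adjusted FPKM and females 136, 319, 416, 173 and 280. The log2 difference was 1.21 ± 0.28 (SE, adjusted p = 0.0409), and the ranges of the sexes overlapped. This call was lost without replicate 1, 2 or 4 of the females or replicate 2, 3 or 4 of the males, with adjusted p of 0.063 to 0.218. All libraries of both sexes at this age had no values between 0 and 1, and a fit of such libraries alone gave the same difference with an adjusted p of 0.106. The call was lost under 5 of 12 alternatives in all, with adjusted p up to 0.228. Ifitm3 differed by 0.50 ± 0.27 at 16 months and did not pass (adjusted p = 0.675), where 0.248% of all genes passed. The study picked Ifitm2 for its comparison of the sexes on these samples, so that this is no independent evidence.

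At the other ages neither gene passed between the sexes. The log2 difference of Ifitm2, male minus female, was 0.54 at 3 months, -0.12 at 6 months, -0.54 at 9 months, 0.84 at 12 months and 0.72 at 24 months (adjusted p between 0.332 and 0.903). That of Ifitm3 was 0.46, 0.30, -0.38, 0.71 and 0.72 at the same ages (adjusted p between 0.332 and 0.713). The share of all genes that passed was 0.23% at 3 months, 0.159% at 6 months, 1.24% at 9 months, 0% at 12 months and 0.0885% at 24 months. Averaged over the 6 ages, males minus females gave 0.44 ± 0.13 for Ifitm2 (adjusted p = 0.0755) and 0.39 ± 0.13 for Ifitm3 (adjusted p = 0.119), where 0.23% of genes passed. The change at 24 against 3 months was not shown to differ between the sexes, with a difference of 0.18 ± 0.43 for Ifitm2 (adjusted p = 0.943) and 0.26 ± 0.43 for Ifitm3 (adjusted p = 0.913), and 0.0177% of genes passed it.

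**Figure D3:**
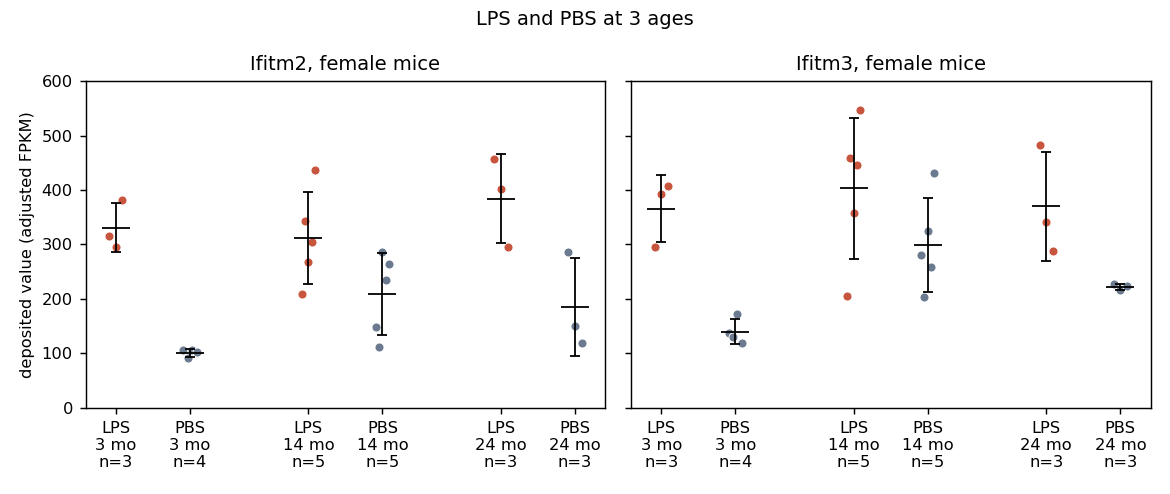
Adjusted FPKM of Ifitm2 (left) and Ifitm3 (right) in LPS-treated (red) and PBS (grey) females at 3, 14 and 24 months. Points are mice, and the black line and bars are the mean and SD. At 3 months every LPS-treated mouse (Ifitm2 296 to 382, Ifitm3 295 to 408) stood above every PBS mouse (91 to 106 and 119 to 173).

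The LPS comparison asked how microglia of each age respond to a systemic inflammatory stimulus. At 3 months both genes rose under LPS. Ifitm2 was 315, 296 and 382 adjusted FPKM in LPS-treated females, against 106, 91, 106 and 102 in PBS females, a 3.27-fold ratio of means. Ifitm3 was 295, 393 and 408 in LPS-treated females, against 137, 131, 173 and 119 in PBS females, a 2.61-fold ratio. The log2 changes were 1.69 ± 0.29 for Ifitm2 (SE, adjusted p = 0.000374) and 1.38 ± 0.26 for Ifitm3 (adjusted p = 0.000832), beside 6.16% of all genes that passed upwards and 5.08% downwards. Both kept their call without any 1 of the 7 mice, with log2 changes of 1.59 to 1.77 and 1.29 to 1.52.

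At 14 months the groups overlapped and neither gene passed. Ifitm2 was 210, 343, 268, 304 and 436 adjusted FPKM in LPS-treated females, against 149, 111, 287, 234 and 265 in PBS females, a log2 change of 0.62 ± 0.24 (adjusted p = 0.189). Ifitm3 was 206, 458, 358, 446 and 546 in LPS-treated females, against 280, 203, 325, 258 and 432 in PBS females, a log2 change of 0.40 ± 0.21 (adjusted p = 0.388). Of all genes 1.40% passed upwards and 0.407% downwards at this age.

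At 24 months Ifitm2 passed and Ifitm3 did not. Ifitm2 was 457, 401 and 295 adjusted FPKM in LPS-treated females, against 287, 150 and 119 in PBS females, a log2 change of 1.13 ± 0.31 (adjusted p = 0.0244). Ifitm3 was 482, 341 and 288 in LPS-treated females, against 227, 216 and 224 in PBS females, a log2 change of 0.70 ± 0.27 (adjusted p = 0.0976). For both genes every LPS-treated mouse was above every PBS mouse, and 4.27% of all genes passed upwards and 5.44% downwards. The Ifitm2 call was lost without replicate 2 or 3 of the PBS mice or replicate 1 or 2 of the LPS-treated mice, with log2 changes of 0.86 to 1.09 and adjusted p of 0.0605 to 0.0948. The Ifitm3 change passed after scaling the libraries to the same total (0.87, adjusted p = 0.0363).

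The LPS responses were not shown to differ between ages. The response at 14 minus that at 3 months was -1.07 ± 0.38 for Ifitm2 (unadjusted p = 0.00874, adjusted p = 0.285) and -0.98 ± 0.33 for Ifitm3 (unadjusted p = 0.00716, adjusted p = 0.264) in limma, a contrast in which 0.301% of all genes passed. The response at 24 minus that at 3 months was -0.57 ± 0.42 for Ifitm2 (adjusted p = 0.63) and -0.68 ± 0.38 for Ifitm3 (adjusted p = 0.511), where 0% of genes passed. At 24 minus 14 months the values were 0.51 ± 0.39 (adjusted p = 0.538) and 0.30 ± 0.35 (adjusted p = 0.704), where 1.19% passed. Among LPS-treated mice alone, those of 24 months differed from those of 3 months by 0.20 ± 0.31 for Ifitm2 (adjusted p = 0.876) and 0.00 ± 0.27 for Ifitm3 (adjusted p = 1), with 0.0354% of genes passing.

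Neutrophil markers went the other way from the genes under LPS at 3 months. Of 12 measured markers 8 fell and none rose, with sums of 2152 to 3713 adjusted FPKM in LPS-treated females, against 6984 to 18506 in PBS females. At 14 months none passed (2003 to 4314 in LPS-treated females, 2281 to 6472 in PBS females). At 24 months Mpo, Elane and Lcn2 rose, and the sums were 4006 to 15984 in LPS-treated females and 3229 to 8479 in PBS females. The sums for 7 monocyte markers overlapped between LPS-treated and PBS females at each of the 3 ages, and at 3 months Ms4a4c and Plac8 rose and Ccr2 fell. The 3 T and NK cell markers summed to 173 to 270 in LPS-treated females and 42 to 54 in PBS females at 3 months. There Ccl5, a chemokine, and Ms4a4b rose. Most of the sum in LPS-treated females was Ccl5, at 188 ± 45.8 against 20.5 ± 2.65 in PBS females. Ms4a4b was at 14.0 ± 2.65 against 6.0 ± 3.37. The study analysed Ccl5 as an interferon gamma response gene in microglia. At 24 months the marker sums were 69 to 237 in LPS-treated and 222 to 318 in PBS females, and Nkg7 and Ms4a4b fell. At 14 months Nkg7 also fell (log2 change -1.18). Of 10 microglia markers Sall1, Cx3cr1, Gpr34 and P2ry12 fell under LPS at 3 months (log2 changes of -1.40, -0.93, -0.90 and -0.81), Gpr34 fell at 14 months (-0.76) and none passed at 24 months. The part of these cells in the LPS values was not tested. The lists for border macrophages (7 measured), B cells (2), endothelial cells (3), astrocytes (3) and oligodendrocytes (1) were short. No more than 2 genes of each passed in 1 direction in any of the 4 age and 3 LPS comparisons described with lists here. Jchain of the B cell list rose in females of 16 and 24 months and males of 16 months (2.93, 3.47 and 3.71). Ly6a of the endothelial list rose in males of 16 and 24 months and females of 16 months (1.48, 1.36 and 1.9). In males of 16 months Mrc1, Pf4, Cd79b and Pecam1 fell (-0.96, -0.98, -0.97 and -0.72). Clu fell under LPS at 24 months (-2.69). Over all genes, 0.124% to 6.16% passed in a given direction.

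**Figure D4:**
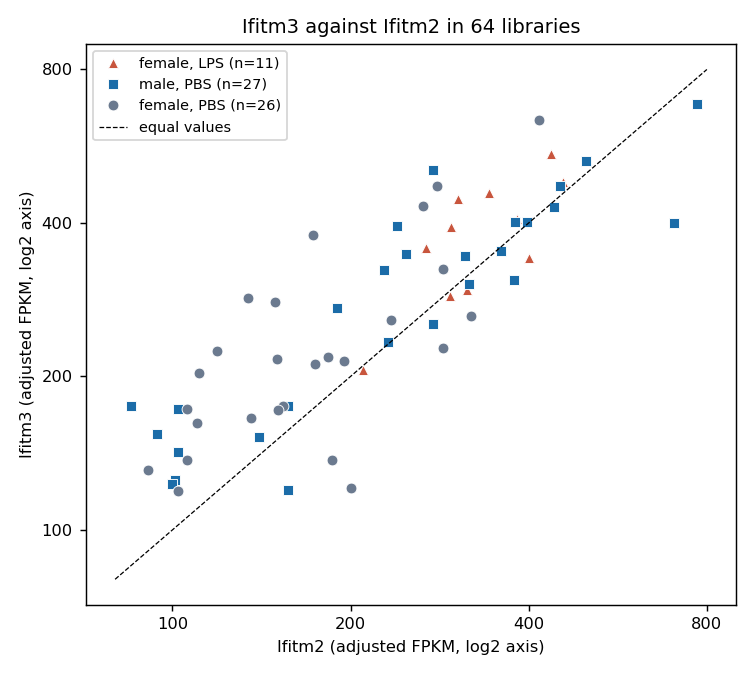
Ifitm3 against Ifitm2 in adjusted FPKM on log2 axes, 1 point per library, for LPS-treated females (red triangles), PBS males (blue squares) and PBS females (grey circles). The dashed line marks equal values, and 48 of the 64 libraries had more Ifitm3 than Ifitm2.

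Ifitm2 and Ifitm3 varied together. Over the 27 PBS males they gave a Pearson r of 0.90 and a Spearman rho of 0.87 (two-sided permutation p = 1e-05 for each, the smallest these permutations can give, adjusted 6e-05), and over the 26 PBS females 0.70 and 0.62 (permutation p = 4e-05 and 0.00102, adjusted 0.00012 and 0.00122). Without the 2 mice farthest from the median of Ifitm2 r was 0.88 in males and 0.62 in females. Within libraries of 1 kind it was 0.81 and 0.84 in the 16 and 11 males and 0.57 in 21 females. After each group's mean was taken off, a test added after the data were seen, the 64 libraries still gave an r of 0.53 and a rho of 0.47 (permutation within groups, p = 0.00058 and 0.00121), so that mice of 1 group that were high in one gene tended to be high in the other. Shared sequence, depth and the adjustment for batches are common to both genes.

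No difference in the ratio of the genes passed its test. In log2 units Ifitm3 exceeded Ifitm2 by 0.27 on average over 64 libraries, and the group means ran between -0.21 in males of 16 months and 0.56 in PBS females of 14 months. The ratio differed by -0.32 between LPS-treated and PBS females at 3 months, by -0.22 at 14 months and by -0.43 at 24 months, and at 24 against 3 months by -0.01 in males and -0.09 in females. None of these 5 differences passed a two-sided exact permutation test (p = 0.143, 0.262, 0.4, 0.971 and 0.857, adjusted 0.655, 0.655, 0.667, 0.971 and 0.971). At 24 months under LPS, with 3 mice a group, the smallest p the exact test can give is 0.1. For LPS at 3 months and for 24 against 3 months in each sex it is 0.0286, and for LPS at 14 months 0.00794. After adjustment over the 5 tests only the comparison at 14 months could have passed on its own.

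The genes whose 17 group means ran most like those of each gene overlapped. For Ifitm2 they were Lilr4b (r = 0.975), Cd300lf (0.96), Cdkn2d (0.956), Lilrb4a (0.954) and Ifitm3 (0.952), and over the 64 single libraries the same genes gave r of 0.893, 0.791, 0.819, 0.872 and 0.844. For Ifitm3 they were Lilr4b (r = 0.985), Slfn1 (0.973), Plaur (0.959), Cdkn2d (0.954) and Ifitm2 (0.952), with 0.849, 0.828, 0.841, 0.739 and 0.844 over single libraries. Lilrb4a encodes an inhibitory immunoglobulin-like receptor of myeloid cells, Cd300lf an immune receptor, Plaur the urokinase receptor and Cdkn2d an inhibitor of cyclin-dependent kinases. These values describe likeness over points that share libraries and processing.

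Of the other IFITM genes, 3 were in the table. Ifitm1 lay far lower, at a mean of 22.9 adjusted FPKM, and rose in males at 16 months (78.2 ± 30.7, against 8.25 ± 4.57 at 3 months, n = 4 each, log2 change 3.18, adjusted p = 0.000129), in males at 19 months (2.28, adjusted p = 0.006) and in females at 16 months (2.22, adjusted p = 0.0428). Ifitm6, a member of the cluster on chromosome 7, averaged 70.6 adjusted FPKM and rose in males at 12, 16, 19 and 24 against 3 months, with log2 changes of 1.44, 2.02, 1.40 and 1.16. Under LPS at 3 months Ifitm6 had 32.7 ± 16.5 adjusted FPKM in LPS-treated females (n = 3) and 90.5 ± 38.5 in PBS females (n = 4), a log2 change of -1.45 that did not pass (adjusted p = 0.112) and was opposite in sign to those of Ifitm2 and Ifitm3. Ifitm10, which lies further along chromosome 7, averaged 40.7 adjusted FPKM and passed in no comparison, with log2 values from -0.53 to 0.40.

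**Figure D5:**
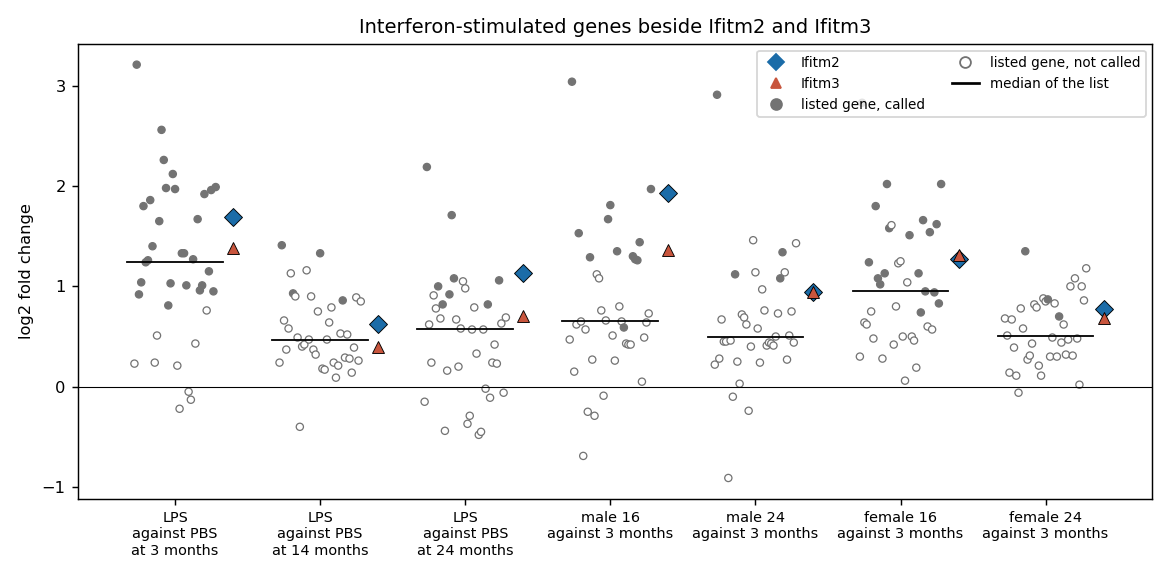
Log2 fold changes of 37 interferon-stimulated genes (grey, filled where they passed) in 7 comparisons, with their median (black line) and the values of Ifitm2 (blue diamond) and Ifitm3 (red triangle). Upwards 28 of the 37 passed at 3 months under LPS, beside 6.16% of all genes. In females of 24 months 3 did, beside 1.56%.

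The wider interferon pathway was described with lists chosen with earlier results of these data known. Of 50 listed interferon-stimulated genes 37 were measured, and neither Ifitm2 nor Ifitm3 was among them. Under LPS at 3 months 28 rose and none fell, with a median log2 change of 1.24 beside -0.14 over all genes. Of all genes 6.16% passed upwards there. Cxcl10, a chemokine, was at 52.3 ± 8.08 adjusted FPKM in LPS-treated females and 4.75 ± 0.5 in PBS females (log2 change 3.21), and Ifit1 and Ifit2, which bind viral RNA or translation factors, rose by 2.56 and 2.26. The ubiquitin-like modifier Isg15 rose by 2.12. Both Ifitm2 and Ifitm3 lay above the median of this list.

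At the later ages fewer of these genes passed under LPS, and fewer of all genes did too. Of all genes 1.40% passed upwards at 14 months and 4.27% at 24 months, against 6.16% at 3 months. At 14 months 4 of 37 rose (median 0.47, beside 0.02 over all genes), Cxcl10, Isg20, Gbp7 and Slfn2, with log2 changes of 1.41, 1.33, 0.93 and 0.86. At 24 months 8 rose (median 0.58, beside -0.15), led by Cxcl10 at 2.19, Ifit1 at 1.71, Ifit2 at 1.08 and Trim30a at 1.06. None fell at either age.

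With age, 12 of 37 rose in males at 16 months (median 0.65, beside 0.00 over all genes) and 4 at 24 months (median 0.50, beside 0.10). In females 18 rose at 16 months (median 0.95, beside -0.18) and 3 at 24 months (median 0.51, beside -0.02). Of all genes 4.52% and 2.73% passed upwards in males at these ages, and 3.01% and 1.56% in females. Cxcl10 led in males at both ages, with log2 changes of 3.04 and 2.91, and in females at 16 months with 2.83. Those that passed in females of 24 months were Ifi27l2a (1.35), Lgals3bp (0.87) and Psmb8 (0.70), the last of them a subunit of the immunoproteasome. None of the 37 fell in any of these 4 comparisons.

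Upstream of the genes, some of the listed transcription factors rose. Of 10 interferon-responsive transcription factors 5 rose under LPS at 3 months, 2 at 14 months and 1 at 24 months. Irf7, which drives type I interferon, was at 33.3 ± 8.14 adjusted FPKM in LPS-treated females and 8.5 ± 3.0 in PBS females at 3 months (log2 change 1.87), and at 14 months its log2 change was 1.16. Stat3 rose at all 3 ages, by 1.15, 0.80 and 0.92. With age Irf7 and Irf1 rose in males at 16 months (1.90 and 0.94) and Irf1 also rose in females at that age (0.75). At 24 months Irf7 rose in males (1.73) and none passed in females. None of 7 measured interferon receptor and JAK kinase genes passed in any of these 7 comparisons, in which 0.124% to 6.16% of all genes passed in a given direction, so that no call among 7 genes is close to the share of all genes. Ifngr1, a chain of the interferon gamma receptor, was at 534 ± 42.3 adjusted FPKM in males of 16 months and 762 ± 55.5 at 3 months, a log2 change of -0.51 with an adjusted p of 0.00563 in limma that was under the fold threshold.

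Genes whose products act on or with IFITM proteins were also listed. None of 7 measured modifiers and partners of IFITM proteins and none of 4 measured gamma-secretase subunits passed in any of these 7 comparisons, with list medians between -0.16 and 0.10 and between -0.16 and 0.23 on the log2 scale. With so few genes this too is close to the share of all genes.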

How the data were processed

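Bulk RNA-seq libraries of sorted microglia from 64 mice were analysed. The authors' processing notes name RSEM 1.2.12, HISAT2 2.0.4 and Bowtie2 2.2.5 with mm10, and their methods state FPKM, a batch adjustment with ComBat_seq whose batches are not named, and removal of genes that averaged under 10. As deposited, the values are scores, namely batch-adjusted FPKM rounded to whole numbers (297 values are fractional), so that tests for counts were not used and no counting interval was computed. The 2 genes and all gene lists were chosen with earlier results of these data known.

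Values were taken as log2(value + 1), so that fold changes of low genes are understated, and compared with limma 3.58.1 in R 4.3.3 with a variance trend, in separate fits for female ages, male ages, the 6 LPS groups and the 12 PBS groups of shared ages. p-values were adjusted over all 5647 genes. The threshold was an adjusted p of 0.05 together with a fold of 1.5. Ratios were compared with exact permutation tests and relations with 100000 permutations (Python 3.11.15, numpy 2.4.6, SciPy 1.17.1). The scripts were tested on simulated data. Named genes were Ifitm2 and Ifitm3, the other IFITM genes, up to 4 passing genes with the largest change per list, and the 5 genes most like each of the pair. Not all of these are described. Matches in promoters came from RefSeq tables (GRCm38.p6), and shared stretches from GENCODE transcripts. Alternatives were other pseudocounts (0.5 and 5), a minimum mean of 50, scalings, variance models, sets of groups, a block for the replicate number, single library kinds and leaving out each library. Each library is taken as 1 mouse, since the study gives its group sizes in mice. The limma p-values rest on the spread between mice within groups. That spread is pooled over all groups of a fit and moderated across genes, so it is not that of the 2 groups compared alone. Some results of the gene lists are not reported here.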

Additional observations from a re-analysis of the deposited data

Results flagged for a closer look

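In males of 3 months Ifitm3 was 323 adjusted FPKM in 1 mouse, against 152 to 175 in the other 3, a gap larger than Dixon's 95% critical value for 4 samples. Of 22 sets of 4 or 5 mice examined in this way for the pair of genes 1 was singled out, and chance alone gives about 1 in 20. Without this mouse the log2 change of Ifitm3 at 24 against 3 months in males was 1.19 (adjusted p = 0.00421 in limma).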

How the results depend on the processing

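Over 59 results on Ifitm2 and Ifitm3 and 1202 values under alternatives, 1106 kept the direction and the side of the threshold, 50 lost and 24 gained a call, and 22 changed sign. Of the 12 main results, with 296 values, 28 lost and 6 gained a call and 0 changed sign. The calls of both genes under LPS at 3 months held under each of 18 alternatives. At 24 against 3 months in males the calls were lost with median-ratio scaling (0.85 for Ifitm2, 0.84 for Ifitm3), scaling to the same total (0.83, 0.82), all 17 groups in 1 fit (0.94 each) and only the 2 groups compared (0.94 each), for Ifitm2 also with no trend (0.94, adjusted p = 0.0537) and with only libraries without values between 0 and 1 (0.94). The adjusted p over these alternatives ran from 0.0281 to 0.116 for Ifitm2 and from 0.024 to 0.114 for Ifitm3. By unadjusted p with the same fold of 1.5, calls were gained in females at 24 against 3 months (Ifitm2 0.77, Ifitm3 0.68), for Ifitm2 under LPS at 14 months (0.62) and for Ifitm3 under LPS at 24 months (0.70). With only the 2 groups compared Ifitm3 gained its call in females at 24 months (0.68), and Ifitm2 lost it under LPS at 24 months (1.13, adjusted p = 0.0707). Scaled to the same total, Ifitm3 under LPS at 24 months gained a call (0.87) and lost it in males at 19 months (0.86, adjusted p = 0.0508). Between the sexes at 16 months Ifitm2 lost its call with no trend, with robust estimates, scaled to the same total, with only the 2 groups compared and within 1 kind of library (adjusted p = 0.0545, 0.0578, 0.0541, 0.228 and 0.106).

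The replicate numbers in the sample titles gave no sign of pairing the mice. Deviations of libraries with the same title number had median correlations of 4.26e-05, -0.00444, 0.0139 and 0.00218 in the female, male, LPS and sex fits. The deposited column names number some of these mice differently, and a pairing by those numbers was not tested. With the number as a block Ifitm3 lost its call in males at 24 months (0.94, adjusted p = 0.0519) and in females at 14 months (0.93, adjusted p = 0.0578), no other call on the pair of genes changed, and the count of genes passing became 167 in males at 24 months, beside 161.

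Without single libraries, the ranges of Ifitm2 and Ifitm3 were 0.40 to 1.03 and 0.60 to 0.78 in females at 24 months, 0.73 to 1.15 and 0.78 to 1.19 in males at 24 months, 1.59 to 1.77 and 1.29 to 1.52 under LPS at 3 months, 0.42 to 0.76 and 0.27 to 0.62 at 14 months, 0.86 to 1.49 and 0.49 to 0.86 at 24 months, and 0.39 to 0.50 and 0.34 to 0.42 between the sexes.

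The 8 results that changed sign were at most 0.18 in size. Without single libraries Ifitm2 ran from -0.14 to 0.37 in males at 6 months, from -0.31 to 0.17 between the sexes at 6 months and from -0.09 to 0.55 for the change at 24 months in males minus females, and Ifitm3 ran from -0.16 to 0.26 in males and from -0.02 to 0.33 in females at 6 months and from -0.21 to 0.16 in LPS-treated females of 24 against 3 months. The ratio at 24 against 3 months ran from -0.18 to 0.15 in males and from -0.36 to 0.26 in females. In only libraries with values between 0 and 1, Ifitm3 in males at 6 months was -0.22, and with scaling to the same total Ifitm3 in LPS-treated females of 24 against 3 months was -0.01.

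The count of all genes that passed moved by more than 1.5 times under some alternatives. It was 118 in females at 24 months and 20 to 617 over alternatives, 161 in males at 24 months and 40 to 398, 635 under LPS at 3 months and 228 to 1037, 102 at 14 months and 26 to 338, and 548 at 24 months and 91 to 1117. Depth is unknown and limits no statement by counting.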
